A study of Mus musculus with 30 samples.

Results

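The replication-dependent histone genes of the mouse were described here across bone marrow haematopoietic stem cells (HSCs), the sorted cells from which all blood cells derive. Members were the Ensembl genes of the deposited table whose GENCODE M21 symbol begins Hist1h, Hist2h, Hist3h or Hist4, with a value above 0 in at least 3 libraries and without pseudogene (-ps) names. The rule used no comparison between groups. It found 67 members among 35727 genes. They comprised 6 linker histone H1 genes, 19 H2A, 17 H2B, 12 H3 and 13 H4 genes. Of 70 symbols with these beginnings, 1 was left out by name, and Hist1h2ba and Hist2h2aa2 were at 0 in every library. Bulk RNA sequencing had been made from 30 libraries in 8 groups, named by genotype or housing and by age. Wild-type mice gave 4 libraries at 2 months, 5 at 1 year and 4 at 2 years. Mice labelled IL1R1 KO, a name that denotes a knockout of the interleukin-1 receptor gene Il1r1, gave 3, 4 and 5 libraries at the same ages. Mice labelled bowel germ free, called germ-free here and raised without a gut microbiota, gave 3 libraries at 2 months and 2 at 1 year, and the labels name no knockout in them. No treatment was named for any group. The series title concerns interleukin-1, the microbiome and the ageing of HSCs. The sources used here do not give the strain or the sort markers. Whether each library of a group is a different animal is not stated either, and the p-values cover no more than the spread seen among these libraries. Below, IL1R1 KO stands for the libraries so labelled, and replicate numbers follow the labels. For IL1R1 KO 1 year replicate 1 the age field said 2 months while its title and source said 1 year, and it was kept at 1 year.

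Replication-dependent histones package newly made DNA. The core histones H2A, H2B, H3 and H4 form the nucleosome, and linker histone H1 binds the DNA that enters and leaves it. Their mRNAs are made mainly during S phase, and in most of them the end is set by cleavage just after a conserved stem-loop that the stem-loop binding protein Slbp holds, with no poly(A) tail. Transcripts that run past the stem-loop to a downstream signal can carry a tail. HSCs are largely quiescent, so few of them are in S phase at a time. Per the labels' protocols the cDNA was made by Smart-seq2, which primes on poly(A) tails and does not keep the strand. The values are therefore not the total of these mRNAs, and which share of each carries a tail was not tested.

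The stem-loop sequences show how alike these genes are and where their annotated transcripts stop. Of the 67 members, 44 had a 16-base stem-loop in the longest annotated transcript, in 8 kinds. The most common, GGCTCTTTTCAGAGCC, was in 24 members, followed by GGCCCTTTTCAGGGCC in 7 and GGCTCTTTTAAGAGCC in 6. In the lines below, read from GENCODE M21 transcripts 5′ to 3′, capitals mark the stem-loop. They are the members with high levels or with large differences described further on.
Hist1h1c: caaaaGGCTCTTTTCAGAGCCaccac
Hist1h2ap: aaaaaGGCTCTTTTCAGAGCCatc
Hist1h2ad: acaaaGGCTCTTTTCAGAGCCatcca
Hist1h2bg: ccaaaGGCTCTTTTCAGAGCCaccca
Hist1h3e: aaaacGGCTCTTTTAAGAGCCacctc
Hist1h3g: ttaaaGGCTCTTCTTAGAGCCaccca
Hist1h4d: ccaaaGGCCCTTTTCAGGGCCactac
Hist1h4i: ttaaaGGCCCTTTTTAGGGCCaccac
Hist1h4m: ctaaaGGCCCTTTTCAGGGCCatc
Hist4h4: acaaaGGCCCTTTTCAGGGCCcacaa
In the H2A gene Hist1h2ap and in the H4 gene Hist1h4m the annotated transcript stopped 3 nt after the stem-loop. By contrast it ran on for 840 nt in the H1 gene Hist1h1c, 770 nt in the H4 gene Hist1h4d and 2445 nt in Hist4h4. In all, 21 members ended within 100 nt of the stem-loop, 23 ran on further, and 23 had no stem-loop in the annotated transcript, of which 14 ended within 30 nt of the stop codon. A polyadenylation signal lay in the last 40 nt of 12 members that ran on, of 1 that ended near the stem-loop and of 3 without a stem-loop.

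Many members share sequence, which limits what a single gene's value can mean when reads are 100 nt long. Every 100-base window of each member's transcript was compared with the other members. In 56 members at least 1 window was shared with another member, in 23 members more than 50% of windows were, and 11 members shared none. All 13 H4 genes encode the same protein, 9 H2A genes encode an identical protein, as do 7 H3 and 6 H2B genes, whereas the 6 H1 proteins all differ. Hist1h2ap and its near copy Hist1h2ao have the same coding sequence over 390 bases, and Hist1h2ad differs from Hist1h2ap at 3 of 390 bases. The share of windows found in other members was 92.2% for Hist1h2ap, 92.7% for Hist1h2ao, 63.6% for Hist1h2ad, 87.9% for Hist1h2ah, 88.4% for Hist1h2ai and 91.7% for Hist1h2aj. It was 5.07% for Hist1h1c, 25.4% for Hist1h2bc, 44.9% for Hist1h2bg, 15.1% for Hist1h4i and 0% for Hist1h4d. Single values of members with high shares are therefore uncertain.

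The H4 copies Hist1h4m and Hist1h4n are shown next because they parted in the germ-free libraries. Hist1h4m lies at chr13:21811746-21812147 on the plus strand and Hist1h4n at chr13:21831767-21832196 on the minus strand (GRCm38). Over the 402 bases they have in common their transcripts differ by the single substitution G36A, with Hist1h4m as reference and positions counted from 1 at the transcript's 5′ end. The lines give bases 22 to 50 of each transcript, with that base in capitals.
Hist1h4m: acagttttgtcttcGtcatgtctggtcgt
Hist1h4n: acagttttgtcttcAtcatgtctggtcgt

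Promoters were taken from RefSeq (GRCm38.p6), as 250 bases before and 50 after each start site, and 58 of the 67 members were matched. The windows of H2A and H2B genes that lie head to head cover part of the same stretch. A motif counted on both strands can there be counted for both genes, so these promoters are not independent. CCAAT, counted on both strands, was present in 49 of 58 (84.5%), against 37.4% of all 32851 promoters of that length. It was in all matched H1, H2A, H2B and H3 promoters but in 3 of 12 H4 promoters. TATAAA was present in 33 of 58 (56.9%, against 13.6% of all promoters). The octamer ATTTGCAT, a motif known from H2B promoters, was present in 12 of 58 (20.7%, against 1.74%), of which 7 belonged to H2A and 5 to H2B genes. An example that holds all of them is the H2B gene Hist1h2bg, whose promoter (chr13:23571150-23571449, plus strand) is printed with the motifs in capitals, in matches that do not overlap, because it also holds the start of the facing H2A gene Hist1h2ae and because both genes fell with age in wild type.
Hist1h2bg: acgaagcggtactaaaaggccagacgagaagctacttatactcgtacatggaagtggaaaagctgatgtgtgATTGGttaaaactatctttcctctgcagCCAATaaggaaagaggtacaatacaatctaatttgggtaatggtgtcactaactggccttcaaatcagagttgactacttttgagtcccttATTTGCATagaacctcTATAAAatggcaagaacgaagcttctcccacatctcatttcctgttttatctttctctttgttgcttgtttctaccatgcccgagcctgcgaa

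Of the 67 members, 55 lie in the Hist1 cluster on chromosome 13, 9 in Hist2 on chromosome 3 (96219865 to 96270132), 2 in Hist3 on chromosome 11 (58948920 to 58956830) and Hist4h4 alone on chromosome 6 (136801553 to 136804415). Without the distant gene Hist1h2al, the Hist1 members spanned 2.22 Mb, from 21715763 to 23934851. Coordinates are of GRCm38. GENCODE typed Hist1h2aj and Hist1h2al as pseudogenes. Values above 0 in all 30 libraries were found for 42 members. The low-value filter, a normalized count of at least 10 in at least 3 libraries, was passed by 60 members, to which all counts below refer. The others, Hist1h1t, Hist1h2aa, Hist1h2af, Hist1h2al, Hist1h2bf, Hist1h3h and Hist1h4f, had no test.

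The values are the authors' normalized counts, and their sum was 27467300 to 30739600 per library. An estimate of relative depth from the steps between low values gave 15616100 to 56281200 reads (median 29554000), at which 3 reads would be worth 1.57 to 5.34 normalized counts. All 10 HSC markers on the list were above 0 in every group, and their summed level was 89080.3 to 122285 per library. Of these 10 markers, 6 were called higher and 0 lower in wild type at 1 year than at 2 months (6.12% of all genes were higher). The counts were 4 and 0 in wild type at 2 years (3.92%). They were 2 and 0 each in IL1R1 KO at 2 years (5.12%) and in germ-free at 1 year. Against wild type, 0 were higher and 3 lower in germ-free at 1 year (3.13% of all genes were lower). In IL1R1 KO at 2 years the counts were 0 and 2 (1.42% of all genes were called in either direction). The part of these moves in the histone values was not tested. Il1r1 was not lower in the libraries labelled IL1R1 KO (186 to 409 normalized counts) than in wild type (137 to 383). Which exons were deleted was not given in the sources used here, so this is no check of the label. Markers of granulocyte precursors differed among 2-month libraries. Mpo, the myeloperoxidase gene, was 23626 to 73276 in 6 of them (wild-type replicates 2 and 4, IL1R1 KO replicates 1 and 3, germ-free replicates 1 and 3), against 4.33 to 3075 in the other 4 and 20.5 to 16541 at the later ages. Summed over 13 granulocyte genes, all of them above 0 in every group, the level was 15337 to 122257 in wild type at 2 months and 14177 to 17802 at 1 year. Between these ages 12 of the 13 were below 0, with a median log2 difference of -4.41. Of them 5 were called lower and 1 higher (4.61% and 6.12% of all genes). Counts of called members, summed levels of members and most list counts that rest on 2-month libraries are also given without the 6 high-Mpo libraries. This leaves 2 wild-type, 1 IL1R1 KO and 1 germ-free library of that age. Shares of all genes called are given for the fit of all 30 libraries only. Counts without the 6 libraries therefore cannot be set against such a share. Of the 10 HSC markers, 4 were then called higher and 0 lower in wild type at 1 year, and the same at 2 years. The median log2 difference over these markers went from 0.11 to 0.05 in IL1R1 KO at 2 years. In germ-free at 1 year it went from 0.13 to 0.08. A lone library is assumed to vary like the other groups in these fits. In bulk samples, fewer cells of a type and less RNA per cell cannot be told apart.

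The summed values of the members, which are not the total of these mRNAs, were lower in older wild-type groups. A single H2A gene, Hist1h2ap, was given the largest part, though most of its sequence is shared with other members. Summed over the 67 members, wild type reached 28961 ± 4205 (SD, n = 4) normalized counts when 2 months old, then 14421 ± 1276 (SD, n = 5) at the age of 1 year, then 16969.7 ± 1169 (SD, n = 4) by 2 years. In order of age, IL1R1 KO had 25735 ± 2383 (SD, n = 3), then 21597 ± 2799.8 (SD, n = 4), then 17989 ± 769 (SD, n = 5). The young germ-free group had 20422 ± 6019 (SD, n = 3) and the older one 15295 ± 2069.6 (SD, n = 2). No wild-type library of 1 or 2 years reached the lowest wild-type library of 2 months (25356). At 1 year all 4 libraries labelled IL1R1 KO (17419 to 23340) stood above all 5 of wild type (12923 to 16179). The members made up 0.0461% to 0.115% of a library's sum. Without the 6 high-Mpo libraries the 2-month level was 25381 in wild type (mean of 2), 22986 in IL1R1 KO and 26735 in germ-free (1 library each), so that the germ-free library then stood above wild type.

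**Figure D1:**
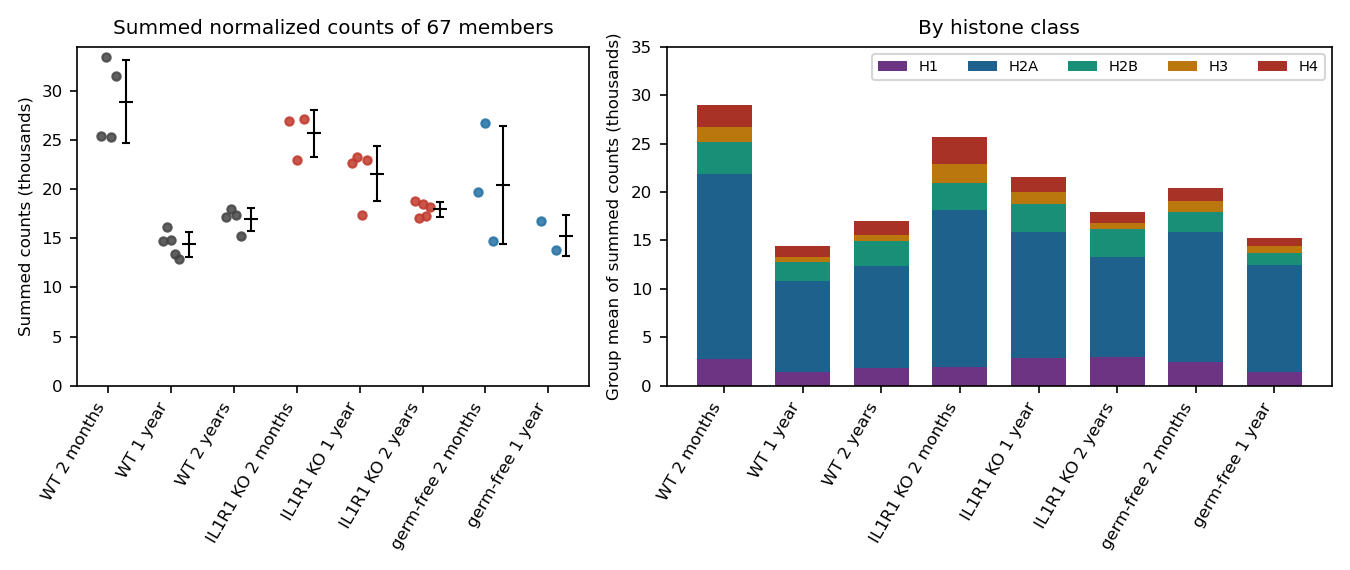
Sum of the 67 members' normalized counts by group, with each library as a point and the group mean and SD marked (left), and group means stacked by histone class (right). Wild-type libraries lay at 25356 to 33492 at 2 months and at 12923 to 16179 at 1 year, while the 1-year libraries labelled IL1R1 KO lay at 17419 to 23340.

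The classes did not all follow the same course. The H1 sum went from 2732 to 1425 and 1793 in wild type over the 3 ages, but from 1884 to 2807 and 2933 in the libraries labelled IL1R1 KO. That rise came from Hist1h1c, whose values by library are given below, and the other H1 members together did not rise. The H3 sum was lower in both genotypes at 2 years, going from 1523 to 688 in wild type and from 1946 to 637 in IL1R1 KO. The H4 sum went from 2242 to 1371 and from 2838 to 1200.0 in the same groups. H2A held the largest part, 19157 in wild type at 2 months and 9391 at 1 year. H2B sums were 3306 and 1947 there, and 2758, 2882 and 2861 by age in IL1R1 KO. The near-level H2B sum of IL1R1 KO held a rise of Hist1h2bc. The other H2B members together were lower in IL1R1 KO at 1 and 2 years than at 2 months. Without the high-Mpo libraries the 2-month sums of wild type were 2584 for H1, 17185 for H2A, 3022 for H2B, 973 for H3 and 1617 for H4. The H3 and H4 levels of 2 years lay closer to these than to the means of all 4 libraries. In IL1R1 KO the remaining library had 1390.0, 14680.2, 2546, 1529 and 2841 in the same order. These sums carry no test of their own.

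Hist1h2ap alone held 42.7% of the member sum in wild type at 2 months, 40.2% at 1 year and 33.2% at 2 years, against 20.1% and 22.1% in the germ-free groups of 2 months and 1 year. With the high-Mpo libraries left out it held 43.4% in wild type and 20.4% in germ-free at 2 months. Per kilobase of transcript, over the median of all libraries, Hist1h2ap led with 13131 normalized counts. It was followed by the H2A gene Hist2h2aa1 (1204), the H1 gene Hist1h1c (1140), Hist1h2ae (1121), the H2B genes Hist1h2bc (969.8) and Hist1h2bg (934), Hist1h2ao (885), Hist3h2a (672), Hist1h2ad (634) and the H4 genes Hist1h4d (504) and Hist1h4i (475). The order among the middle ranks changes with group, since Hist1h1c alone ranged from 621 to 2988 normalized counts over the 30 libraries. By class, and now not divided by length, the 3 members with the highest medians were Hist1h1c, Hist1h1e and Hist1h1d for H1, Hist1h2ap, Hist3h2a and Hist1h2ae for H2A, Hist1h2bc, Hist1h2bg and Hist1h2be for H2B, Hist1h3e, Hist2h3b and Hist2h3c2 for H3, and Hist1h4d, Hist1h4i and Hist4h4 for H4.

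In wild-type HSCs the estimate for every tested member was lower at 1 year than at 2 months, and 26 of 60 passed the test. All 60 log2 differences were below 0, with a median of -1.22 against 0.01 over the 16958 genes tested. By limma with Benjamini-Hochberg adjustment over all genes, 26 members were lower and 0 higher at an adjusted p below 0.05, where 4.61% of all genes were called lower and 6.12% higher. In 19 members every 1-year library was below every 2-month library, against 5.62% of all genes. The lower members were 4 of 5 in H1, 7 of 16 in H2A, 4 of 16 in H2B, 7 of 11 in H3 and 4 of 12 in H4. Log2 differences here and below are on the log2(normalized count + 1) scale, which understates the change of genes at low levels.

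**Figure D2:**
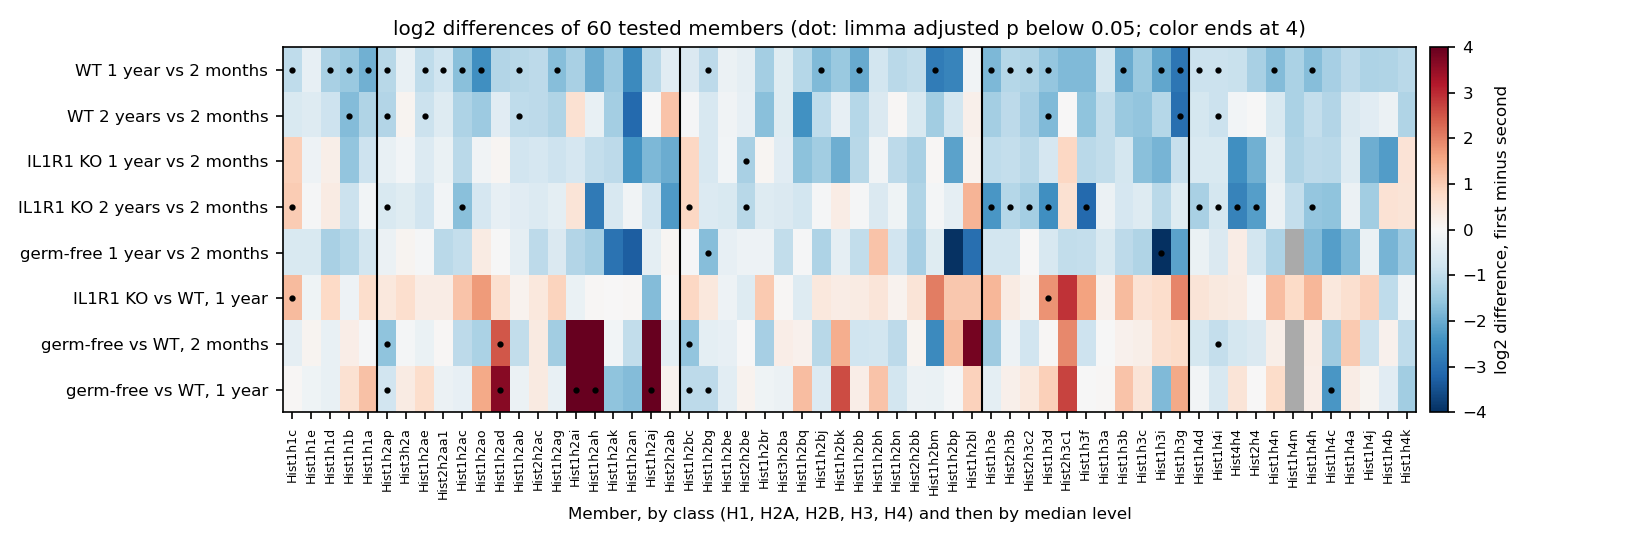
Log2 differences of the 60 tested members (columns, by class) in 8 comparisons (rows), blue for lower and red for higher in the group named first, with a dot on called members, colors that end at 4 and the Hist1h4m cells of germ-free comparisons in grey. The wild-type 1-year row is below 0 in all 60 members, and the IL1R1 KO 2-year row holds 2 called higher and 13 called lower.

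Among H1 genes, Hist1h1c, the most abundant linker histone here, had 1770.1, 1850.3, 2187 and 1850.3 normalized counts in the 4 libraries of 2 months. At 1 year it had 887, 1032, 1187, 1016 and 700.3. The groups did not overlap, and the log2 difference was -1.01 ± 0.27 (SE, adjusted p = 0.0163). Hist1h1b, another linker variant, named here after its values were seen, had 90.1, 227, 88.4 and 192 at 2 months. The 1-year values of Hist1h1b, 55.8, 59.4, 46.4, 58.1 and 28.3, all lay below these, a difference of -1.49 ± 0.38 (SE, adjusted p = 0.0100). Hist1h1d was also called lower (-1.30, adjusted p = 0.0339), while Hist1h1e had 422 ± 85.3 (SD, n = 4) and 337 ± 68.7 (SD, n = 5) and was not (-0.33, adjusted p = 0.385).

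Among H2A genes, Hist1h2ap had 11248, 14583, 10789 and 12823 normalized counts at 2 months. At 1 year the values were 4681, 7343, 7232, 4883 and 5021. Every older library was below every younger one, and the difference of -1.10 ± 0.18 (SE, adjusted p = 0.000122) had the smallest adjusted p of all members. Its near copy Hist1h2ao went from 1031, 871, 653 and 968 to 448, 328, 40.9, 223 and 74.1. These groups did not overlap either, with a difference of -2.44 ± 0.49 (SE, adjusted p = 0.00139), the third largest fall among called members. Hist1h2ae, which encodes the same protein as Hist1h2ap, had 1128, 1444, 958 and 1587 at 2 months. It had 770.3, 785, 517, 531 and 545 at 1 year, without overlap (-1.02 ± 0.22 (SE, adjusted p = 0.00289)). Hist3h2a of the small Hist3 cluster went from 1421 ± 265 (SD, n = 4) to 1176 ± 274 (SD, n = 5) and was not called (-0.29, adjusted p = 0.344).

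Among H2B genes, Hist1h2bg had 664, 909, 684 and 1139 at 2 months. The 1-year libraries had 451, 379, 292, 365 and 552, all lower, and the difference was -1.05 ± 0.23 (SE, adjusted p = 0.00314). Hist1h2bc, the other abundant H2B gene, went from 1310.2 ± 285 (SD, n = 4) to 892 ± 252 (SD, n = 5) and did not pass (-0.58, adjusted p = 0.113). Hist1h2bm was far less abundant. It had 18.1, 47.2, 14.1 and 61.0 at 2 months and 1.69, 3.95, 2.68, 8.77 and 2.52 at 1 year, groups apart, with a difference of -2.79 ± 0.62 (SE, adjusted p = 0.00346). Hist1h2be was not called (-0.23, adjusted p = 0.728).

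H3 had the lowest median of the 5 classes (-1.77), where H2B had -1.06. Hist1h3g, an H3 gene of low level, showed the largest fall among called members. It had 16.9, 42.5, 12.8 and 39.1 normalized counts at 2 months. At 1 year it had 3.36, 0, 0, 11.3 and 7.78, where 2 libraries were at 0, and the difference was -2.90 ± 0.80 (SE, adjusted p = 0.0179). Hist1h3i had 20.0, 83.1, 14.2 and 15.6 and then 21.1, 12.6, 4.73, 0 and 4.17. Its groups overlapped, as replicate 1 of 1 year stood above 3 of the younger libraries, and the difference was -2.07 ± 0.67 (SE, adjusted p = 0.0441). The most abundant H3 gene, Hist1h3e, went from 194, 768, 307 and 631 to 199, 82.5, 77.9, 119.5 and 156, with overlap at 1 pair of libraries (-1.78 ± 0.49 (SE, adjusted p = 0.0173)). Hist1h3d, named here after its values were seen, Hist2h3b and Hist2h3c2 were lower too (-1.55, -1.14 and -1.20).

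H4 genes fell as well. Hist1h4i had 514, 689, 527 and 491 at 2 months and 242, 419, 259, 307 and 311 at 1 year. The groups were apart, with a difference of -0.86 ± 0.19 (SE, adjusted p = 0.00240). Hist1h4d, the H4 gene with no window in common with other members, went from 688, 1370.4, 650.4 and 1089 to 565, 795, 313, 441 and 503. It overlapped in 1 older library, replicate 2, and was called lower (-0.85 ± 0.27 (SE, adjusted p = 0.0411)). Hist4h4 was 158 ± 131 (SD, n = 4) and 79.4 ± 55.4 (SD, n = 5), a difference that did not pass (-0.90, adjusted p = 0.390).

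**Figure D3:**
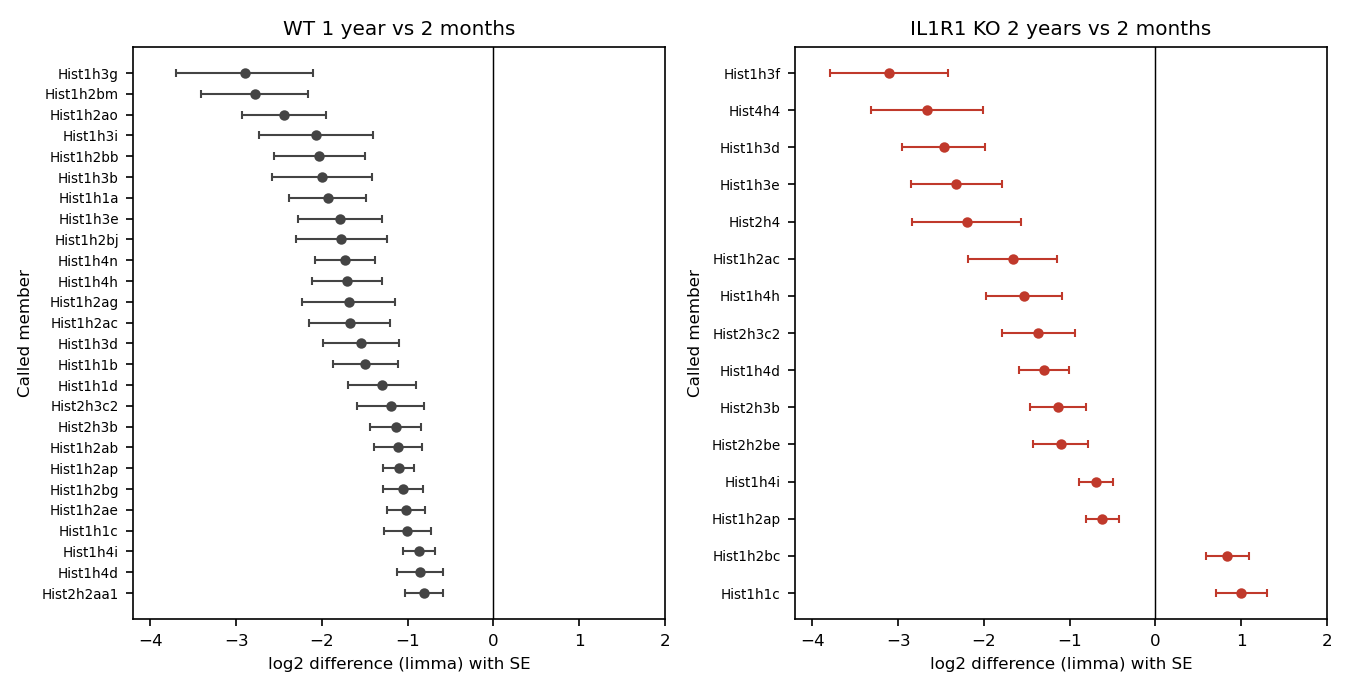
Log2 differences (points) with SE (bars) of the members called in wild type at 1 year (left) and in IL1R1 KO at 2 years (right), each against 2 months, with points left of 0 lower in the older group. All 26 lie left of 0 in wild type, while Hist1h1c and Hist1h2bc lie right of 0 in IL1R1 KO, at 1.01 and 0.84.

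The wild-type count rested in part on the 2 young libraries with high Mpo. Without the 6 high-Mpo libraries of all groups, 2 wild-type libraries of 2 months remained and 3 members were called lower at 1 year, Hist1h2ap, Hist1h2ao and Hist1h1c. The share of all genes called lower in that fit is not given here. The median was then -0.87 and 53 of 56 tested members were below 0. For Hist1h2ap the difference was -0.95 (adjusted p = 0.00797) and for Hist1h1c -1.05 (adjusted p = 0.0271). Leaving out replicate 2 of 2 months alone gave 13 lower members, and leaving out replicate 4 gave 14. Erythroid genes also moved: 6 of 13 were called lower and 1 higher (4.61% and 6.12% of all genes). Of the 13, 11 were below 0, with a median log2 difference of -1.84. Without the high-Mpo libraries 5 of them were called lower and 0 higher, 9 were below 0 and the median was -0.33. Summed levels of the erythroid genes were 54276 to 58479 at 2 months and 50637 to 66581 at 1 year. Their part in the histone values was not tested.

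At 2 years the wild-type levels stayed below those of 2 months, with fewer members past the test. Of 60 members, 7 were lower and 0 higher than at 2 months (1.63% of all genes were lower and 3.92% higher), 54 were below 0 and the median was -0.86. The called members were Hist1h3g (-3.01), Hist1h3d (-1.76), Hist1h1b (-1.73), Hist1h2ap (-1.18), Hist1h2ab (adjusted p = 0.0418), Hist1h2ae (-0.87) and Hist1h4i (-0.85). Hist1h2ap had 5114, 8400.4, 3888 and 5177 normalized counts at 2 years, below all 4 libraries of 2 months (-1.18 ± 0.19 (SE, adjusted p = 0.000150)). Hist1h1b, with 49.6, 58.8, 22.7 and 40.5, was below them too (-1.73 ± 0.40 (SE, adjusted p = 0.00744)). The H3 gene Hist1h3d had 115, 337, 139 and 171 at 2 months and 91.4, 30.2, 49.6 and 47.7 at 2 years, without overlap (-1.76 ± 0.47 (SE, adjusted p = 0.0220)). Hist1h3g was at 0 in 2 of the 2-year libraries but at 21.8 in replicate 1, above 2 of the younger libraries (-3.01 ± 0.85 (SE, adjusted p = 0.0313)). Hist1h1c spread from 621 to 1962 at 2 years and did not pass (-0.62, adjusted p = 0.244).

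The count at 2 years moved with single libraries. It was 3 without replicate 2 of 2 months, 4 without replicate 4 of 2 months, 3 without replicate 4 of 2 years and 12 without replicate 3 of 2 years. Without the high-Mpo libraries Hist1h2ap alone remained called, with a difference of -1.02 (adjusted p = 0.00747), a median over members of -0.52 and 41 members below 0. Between 1 and 2 years of wild type, limma called no member, where 0.0118% of all genes were called, and 6 members had an unadjusted p below 0.05. The median of that comparison was 0.39. Hist1h4n (1.13) and Hist1h2bc (0.54) had the smallest p-values, with adjusted p = 0.915 and 1.00.

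In libraries labelled IL1R1 KO 13 core histone genes fell by 2 years while 1 linker histone and 1 H2B gene rose. These 13 lower and 2 higher members are set against 2 months, where 2.9% of all genes were lower and 5.12% higher. The median was -0.56 and 51 of 60 members were below 0. The lower members were 2 H2A, 1 H2B, 5 H3 and 5 H4 genes. Hist1h1c and Hist1h2bc were the members that rose.

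Hist1h1c had 1030.5, 810.5 and 1957 normalized counts in the 3 IL1R1 KO libraries of 2 months. It had 2059, 2988, 1785 and 2448 at 1 year and 2810.2, 2073, 2347, 2215 and 2454 at 2 years. All 5 libraries of 2 years stood above the 3 young ones, and the difference was 1.01 ± 0.30 (SE, adjusted p = 0.0333). At 1 year replicate 3 lay under the highest young library, and that difference did not pass (0.95, adjusted p = 0.116). Hist1h2bc followed a like course, with 726, 784 and 1129 at 2 months. At 1 and 2 years it had 1785, 1397, 2124 and 1029 and 1636, 1515, 1486, 1722 and 1386. Again all 2-year libraries were above the young ones, with a difference of 0.84 ± 0.25 (SE, adjusted p = 0.0355).

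Among members called in IL1R1 KO at 2 years, the H3 genes Hist1h3f, Hist1h3d and Hist1h3e and the H4 gene Hist4h4 fell the most. The H2A gene Hist1h2ah, named after its values were seen, was at -2.82 and did not pass (adjusted p = 0.223). The H3 gene Hist1h3f had 243, 106 and 191 at 2 months, 39.6, 142, 45.3 and 155 at 1 year and 12.3, 24.3, 23.8, 15.2 and 22.0 at 2 years. The oldest group was below the youngest in every library, with a difference of -3.11 ± 0.69 (SE, adjusted p = 0.00412). Hist1h3d went from 295, 286 and 433 to 38.4, 52.2, 116, 41.6 and 74.5, a difference of -2.47 ± 0.48 (SE, adjusted p = 0.00136). At 1 year Hist1h3d was split, with 114, 335, 106 and 446, so that replicates 2 and 4 were at the young level and replicates 1 and 3 were not. Hist1h3e had 647, 433 and 803, 154, 493, 130.4 and 795 and 98.0, 125, 162, 74.4 and 174 by age. It showed the same split among 1-year libraries and fell by 2 years (-2.32 ± 0.53 (SE, adjusted p = 0.00578)). Hist4h4, the single H4 gene of its cluster, had 407, 399.6 and 540.3 at 2 months. It had 48.7, 86.4, 34.7 and 274 at 1 year and 52.4, 48.1, 145, 90.5 and 49.1 at 2 years, all below the young libraries (-2.66 ± 0.65 (SE, adjusted p = 0.00975)). Hist1h4d (-1.30 ± 0.30 (SE, adjusted p = 0.00542)) and Hist1h4i (-0.69 ± 0.20 (SE, adjusted p = 0.0314)) were lower with non-overlapping groups as well.

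Hist1h2ap was also called lower in IL1R1 KO, from 10296, 8603 and 8944 to 6367, 6211, 6291, 5229 and 6134 at 2 years (-0.62 ± 0.20 (SE, adjusted p = 0.0479)). Its 1-year values, 9486, 7768, 6811 and 6657, overlapped with the young ones at replicate 1 and did not pass (-0.28, adjusted p = 0.580). Whether the size of the falls differs between classes was not tested. The 1-year comparison of IL1R1 KO called 1 member, the H2B gene Hist2h2be, lower (0.613% of all genes were lower), while 22 members had an unadjusted p below 0.05. Hist2h2be had 284, 277 and 311 at 2 months and 206, 71.5, 124 and 107 at 1 year, groups apart (-1.29 ± 0.34 (SE, adjusted p = 0.0398)). It stayed low at 2 years with 158, 122, 106, 173 and 125 (-1.10 ± 0.32 (SE, adjusted p = 0.0306)). The median over members at 1 year was -0.88 and 51 were below 0. Between 1 and 2 years limma called no member (0.177% of all genes were called), with 9 at an unadjusted p below 0.05. The smallest p there belonged to Hist1h3d (-1.78, adjusted p = 0.108).

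Single libraries moved these counts. At 2 years they gave 5 called members without replicate 1 or without replicate 2 of 2 months, 8 (2 of them higher) without replicate 3 of 2 months, and 7, 9, 8 and 9 without replicates 1, 2, 3 and 5 of 2 years. The rise of Hist1h1c was 0.91 (adjusted p = 0.153) without replicate 1 of 2 months and 0.74 (adjusted p = 0.203) without replicate 2. The rise of Hist1h2bc was 0.71 (adjusted p = 0.184) and 0.77 (adjusted p = 0.122) in the same fits. The call of Hist1h1c was also lost without replicates 1, 3 or 5 of 2 years (adjusted p = 0.0720, 0.0541 and 0.0590). That of Hist1h2bc was lost without replicates 1, 2, 3 or 4 of 2 years (adjusted p = 0.0650, 0.0546, 0.0530 and 0.0687). With IL1R1 KO 1 year replicate 1 placed at 2 months, as its age field had it, 6 members were called lower and 0 higher at 2 years. At 1 year the count was 0 without replicates 1 or 2 of 2 months or replicates 2 or 3 of 1 year, and 2 without replicate 3 of 2 months or replicates 1 or 4 of 1 year. Of these 2, 1 was higher without replicate 3 of 2 months (Hist1h1c) and without replicate 4 of 1 year (Hist1h2bc), and both were lower without replicate 1 of 1 year. Without the high-Mpo libraries, with a single IL1R1 KO library of 2 months, Hist1h1c alone was called at 2 years, higher by 1.55 (adjusted p = 0.0216), and no member at 1 year. Granulocyte genes summed to 12211 to 63074 at 2 months and 16931 to 27559.5 at 2 years in IL1R1 KO, and mast cell and basophil genes to 124 to 12931 and 27.0 to 265. Between these ages 5 of 13 granulocyte genes were below 0, with a median of 0.17. Of them 1 was called higher and 0 lower (5.12% and 2.9% of all genes). Of 6 tested mast cell and basophil genes, 5 were below 0 (median -4.24) and 0 were called.

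Germ-free HSCs of 1 year had 2 members lower and 0 higher than those of 2 months (0.814% of all genes were lower). Without Hist1h4m, which was at 0 in all 5 germ-free libraries, 53 of 59 members were below 0 and the median was -0.74. An unadjusted p below 0.05 was found for 16 of the 60. The H2B gene Hist1h2bg had 574, 846 and 511 at 2 months and 143 and 260.3 at 1 year, groups apart (-1.70 ± 0.32 (SE, adjusted p = 0.00215)). Hist1h3i went from 34.7, 57.6 and 30.1 to 0 and 2.33 (-4.46 ± 0.91 (SE, adjusted p = 0.00543)). These were also called lower in wild type at 1 year, so that 2 of the 2 germ-free calls (100%) and 2 of the 26 wild-type calls (7.69%) were shared. Wild type at 1 year and IL1R1 KO at 2 years shared 9 lower members, 34.6% of the former's 26 and 69.2% of the latter's 13, where 26 of all 60 tested members were called lower in wild type. No lower member was shared by IL1R1 KO at 2 years (13) and germ-free at 1 year (2), or by wild type (26) and IL1R1 KO (1) at 1 year. With 2 older libraries this comparison is thin: no member was called without germ-free 1 year replicate 1. Without the high-Mpo libraries, 4 members were called lower against the 1 germ-free library of 2 months that remained, its spread taken from the other groups, and this is no check of the germ-free calls.

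Against wild type of the same age, the libraries labelled IL1R1 KO differed in few members. At 2 months limma called none (0.407% of all genes were called), and 4 members had an unadjusted p below 0.05. These were Hist4h4 (1.88), Hist3h2a (0.47), Hist1h1c (-0.70) and Hist1h2bc (-0.58), named after their values were seen. At 1 year 2 members were higher and 0 lower (0.666% and 0.637% of all genes), with a median of 0.42 and 15 at an unadjusted p below 0.05. Hist1h1c, at 2059, 2988, 1785 and 2448 in IL1R1 KO, stood above all 5 wild-type libraries of that age, which reached 1187 (1.26 ± 0.27 (SE, adjusted p = 0.0135)). Hist1h3d was called higher (1.79 ± 0.45 (SE, adjusted p = 0.0351)), although its lowest IL1R1 KO library (106) lay under wild-type replicate 1 (116).

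These 1-year calls moved with single libraries. There were 4 called members without wild-type replicate 1, 1 without wild-type replicate 2, 3 or 5, and 0 without IL1R1 KO replicate 2. Hist1h1c was then at 1.13 (adjusted p = 0.0853) without IL1R1 KO replicate 2 and at 1.15 (adjusted p = 0.0502) without wild-type replicate 5. Of 13 erythroid genes, 6 were called higher and 0 lower in IL1R1 KO at 1 year (0.666% and 0.637% of all genes). Of the 13, 2 were below 0, while Tspo2 was at 3.04 (adjusted p = 0.000571) and Car1 at 2.79 (adjusted p = 0.0105). Summed over the 13 the level was 64792 to 77224 against 50637 to 66581 in wild type. Their part in the histone values was not tested. At 2 years limma called no member (1.42% of all genes were called), with 11 at an unadjusted p below 0.05. Hist1h1c had the smallest p there (0.93, adjusted p = 0.0923). That comparison had 1 called member without wild-type replicate 1, 2 or 3 of 2 years.

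Whether the age change differed between groups was tested directly, as a difference of differences in the same limma fit. It called no member in any of 3 such tests, where 0.0354% (IL1R1 KO minus wild type, to 1 year), 0.395% (the same, to 2 years) and 0% (germ-free minus wild type, to 1 year) of all genes were called. An unadjusted p below 0.05 was found for 8, 8 and 6 members. Hist1h1c was nearest to the threshold: its age change was higher in IL1R1 KO by 1.96 ± 0.41 (SE, adjusted p = 0.0882) to 1 year and by 1.63 ± 0.41 (SE, adjusted p = 0.0763) to 2 years. Hist1h2bc followed at 1 year, with 1.40 ± 0.35 (SE, adjusted p = 0.134). The medians over members were 0.39 and 0.37 for IL1R1 KO and 0.54 for germ-free without Hist1h4m. Leaving out IL1R1 KO 2 months replicate 3 gave 1 call in each IL1R1 KO test. The same number was called to 1 year without IL1R1 KO 1 year replicate 4 and to 2 years without wild-type 2 years replicate 3. Each IL1R1 KO test also had 1 call without the high-Mpo libraries.

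Between germ-free and wild type, single H2A and H4 members with much shared sequence had different values. No source used here says how reads shared among copies were assigned, so the use of a copy, the assignment of its reads and a sequence difference between colonies cannot be told apart. At 2 months 1 member was higher and 4 lower, where 0.301% of all genes were called in each direction. At 1 year 4 were higher and 5 lower, against 1.83% and 3.13% of all genes. The medians over the 59 members other than Hist1h4m were -0.21 and 0.05. The higher members were H2A genes that share most of their sequence, and the lower ones included Hist1h2ap, Hist1h2bc and Hist1h4m at both ages.

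Hist1h4m was listed at 0 in all 3 germ-free libraries of 2 months and in both of 1 year. In wild type it had 73.4, 96.3, 47.7 and 87.8 at 2 months, 19.4, 22.2, 26.8, 45.0 and 45.9 at 1 year and 7.31, 46.2, 71.8 and 30.8 at 2 years. In IL1R1 KO it had 135, 110.4 and 120.0, 48.5, 80.5, 27.1 and 67.5 and 55.5, 53.3, 67.5, 75.1 and 63.4. No library outside the germ-free groups was at 0, and no fold is given against a group at 0. The adjusted p was 2.99e-08 at 2 months and 1.87e-05 at 1 year. The near copy Hist1h4n, chosen for comparison after its values were seen, had 148, 86.4 and 114 in the young germ-free libraries and 67.8 and 32.8 at 1 year. Wild type had 62.9, 118, 91.6 and 122 at 2 months and 45.8, 25.0, 15.8, 34.4 and 27.7 at 1 year. Hist1h4n thus overlapped between the groups at both ages (0.25, adjusted p = 0.911, at 2 months), although the 2 transcripts differ in 1 of 402 bases.

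Hist1h2ad had 2902, 3928 and 2343 normalized counts in germ-free libraries of 2 months and 3163 and 2734 at 1 year. Wild type had 658, 585, 314 and 675 at 2 months and 962, 233, 155, 179.8 and 119 at 1 year. All germ-free values lay above all wild-type ones, with differences of 2.48 ± 0.52 (SE, adjusted p = 0.0176) at 2 months and 3.63 ± 0.57 (SE, adjusted p = 0.000513) at 1 year. Its relatives Hist1h2ah, Hist1h2ai and Hist1h2aj had a median of at most 21.5 in any wild-type group or group labelled IL1R1 KO. Hist1h2ah had 891, 1261 and 261 in young and 428 and 157 in 1-year germ-free libraries. The wild-type values were 20.2, 50.7, 18.0 and 22.8 and 58.9, 6.27, 0, 4.44 and 4.99. The groups were apart at both ages, and the difference was called at 1 year (5.27 ± 1.54 (SE, adjusted p = 0.0440)) but not at 2 months (4.65 ± 1.40 (SE, adjusted p = 0.162)). Hist1h2ai had 283, 198 and 189 and 246 and 37.2 in germ-free against 7.69, 17.9, 7.70 and 14.2 and 30.3, 8.55, 0, 0 and 9.14 in wild type. Its 1-year groups were apart by a small margin, 37.2 against 30.3, and the differences were 4.29 ± 1.20 (SE, adjusted p = 0.0361) at 1 year and 4.18 ± 1.09 (SE, adjusted p = 0.0770) at 2 months. Hist1h2aj, typed as a pseudogene, had 503, 699.7 and 107 and 450.3 and 143 in germ-free. Wild type had 1.92, 10.9, 19.3 and 34.2 and 49.7, 6.84, 17.3, 0 and 0, again below, with differences of 5.43 ± 1.52 (SE, adjusted p = 0.0371) at 1 year and 4.74 ± 1.39 (SE, adjusted p = 0.148) at 2 months.

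**Figure D4:**
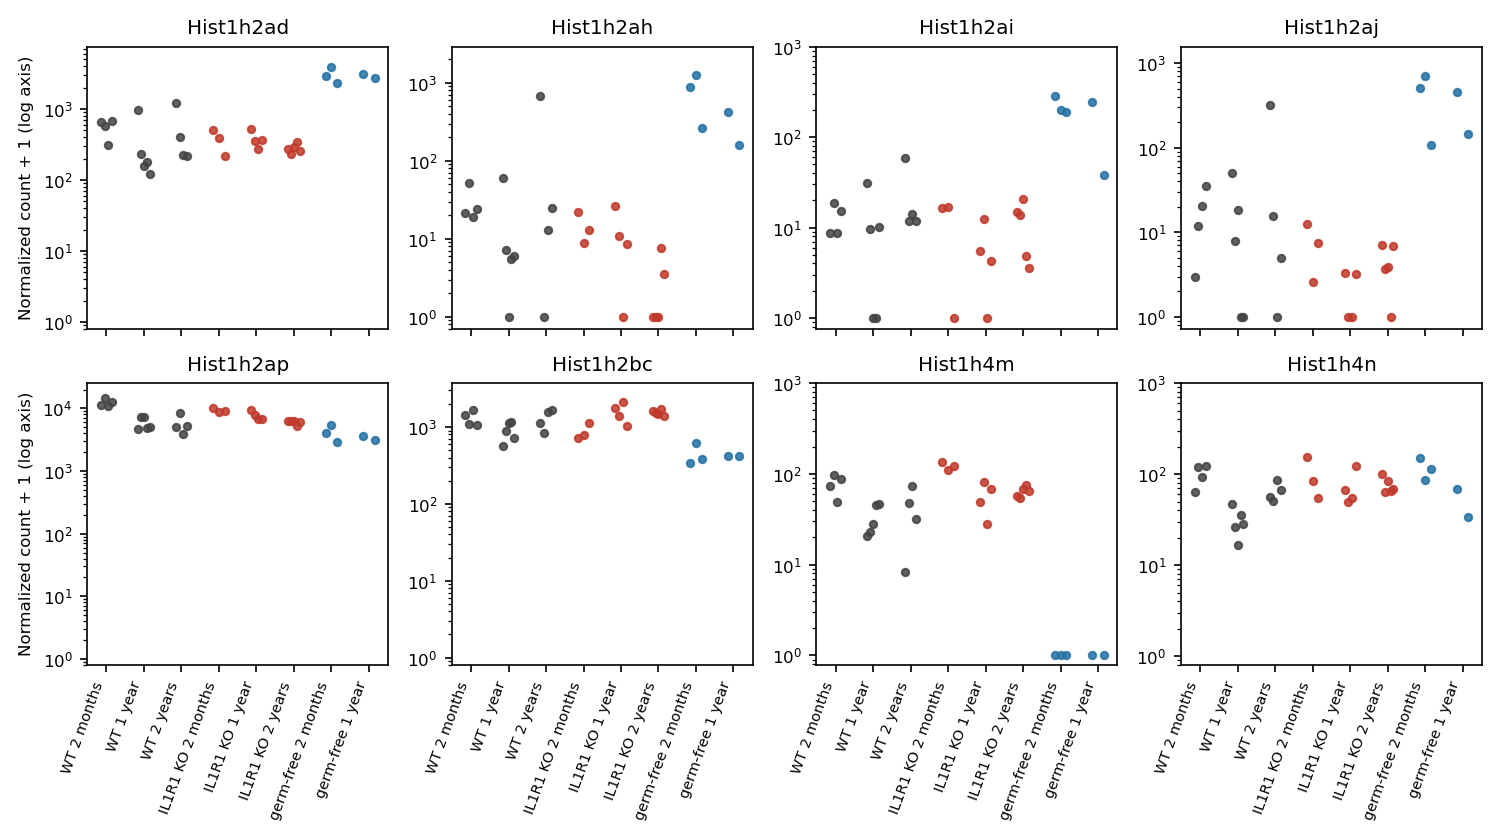
Normalized counts plus 1 on a log axis for 7 members that differ between germ-free and wild-type groups and for Hist1h4n, each library a point, with the IL1R1 KO groups beside them. Hist1h2ad lies at 2343 to 3928 in germ-free libraries and at 119 to 1215 in all others, and Hist1h4m is at 0 in germ-free libraries only.

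Libraries outside the germ-free groups were not all low in these genes. Wild-type 2 years replicate 1 had 1215 for Hist1h2ad, 684 for Hist1h2ah, 58.2 for Hist1h2ai and 317 for Hist1h2aj. It also had the lowest Hist1h4m of all libraries that were not germ-free (7.31). Wild-type 1 year replicate 1 stood high in the same 4 genes (962, 58.9, 30.3 and 49.7). Among the 12 libraries labelled IL1R1 KO, Hist1h2ad went no higher than 527 and Hist1h2ah no higher than 25.0. Housing and any difference in strain or colony between the groups cannot be told apart, since the sources used here do not give the strain. Summed, the 4 genes had 4522 in young and 3679 in 1-year germ-free libraries, against 614 and 369 in wild type, ratios of 7.36 and 9.97. Without wild-type 1 year replicate 1 the wild-type level at 1 year was 186 and the ratio 19.8. Leaving out the high-Mpo libraries gave 2-month levels of 6087 in the remaining germ-free library and 523 in wild type.

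Hist1h2ap moved the other way. Germ-free libraries had 4018, 5453 and 2902 at 2 months and 3662 and 3086 at 1 year, each below all wild-type libraries of that age given above (-1.62 ± 0.20 (SE, adjusted p = 2.67e-05) and -0.77 ± 0.22 (SE, adjusted p = 0.0442)). Hist1h2ap and Hist1h2ad encode an identical protein. Without these 5 H2A genes the member sum was 11776 in germ-free and 15986 in wild type at 2 months, a ratio of 0.737, and 8242 and 8220.2 at 1 year. The 2-month values without the high-Mpo libraries were 15195 (1 library) and 13840.0. Hist1h2bc had 343, 610.1 and 381 and 422 and 415 in germ-free by age, below every wild-type library of the same age (-1.58 ± 0.26 (SE, adjusted p = 0.000897) and -1.04 ± 0.29 (SE, adjusted p = 0.0344)). Hist1h4i was lower at 2 months, with 256, 314 and 286 (-0.95 ± 0.21 (SE, adjusted p = 0.0270)). Hist1h4c, another H4 gene, was lower at 1 year, with 3.49 and 13.8 against 48.3, 45.3, 30.3, 34.0 and 43.4 in wild type (-2.32 ± 0.64 (SE, adjusted p = 0.0331)). Hist1h2bg was lower at 1 year (-1.04 ± 0.29 (SE, adjusted p = 0.0353)), the age at which it had fallen within germ-free.

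The germ-free groups were small and the counts moved with single libraries. At 2 months 3 members were called without germ-free replicate 2. At 1 year there were 3, 5, 2 and 4 without wild-type replicates 2, 3, 4 and 5, and 2 and 5 without germ-free replicates 1 and 2. Without the high-Mpo libraries Hist1h4m alone was called at 2 months, and Hist1h2ad was at 3.11 (adjusted p = 0.127). Of 9 B-cell marker genes, 1 was called higher and 0 lower in germ-free at 2 months (0.301% of all genes in each direction). Of the 9, 0 were below 0 and the median was 2.26, but it was -0.92 without the high-Mpo libraries. At 1 year 7 of 13 erythroid genes were called higher and 0 lower in germ-free (1.83% and 3.13% of all genes), and 1 was below 0. Rhag was at 3.78 (adjusted p = 0.00131), and summed levels were 62096 to 70669.9 against 50637 to 66581 in wild type. Mki67, a marker of cycling cells, was also higher (0.94 (adjusted p = 0.00587)). Their part in the histone values was not tested.

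**Figure D5:**
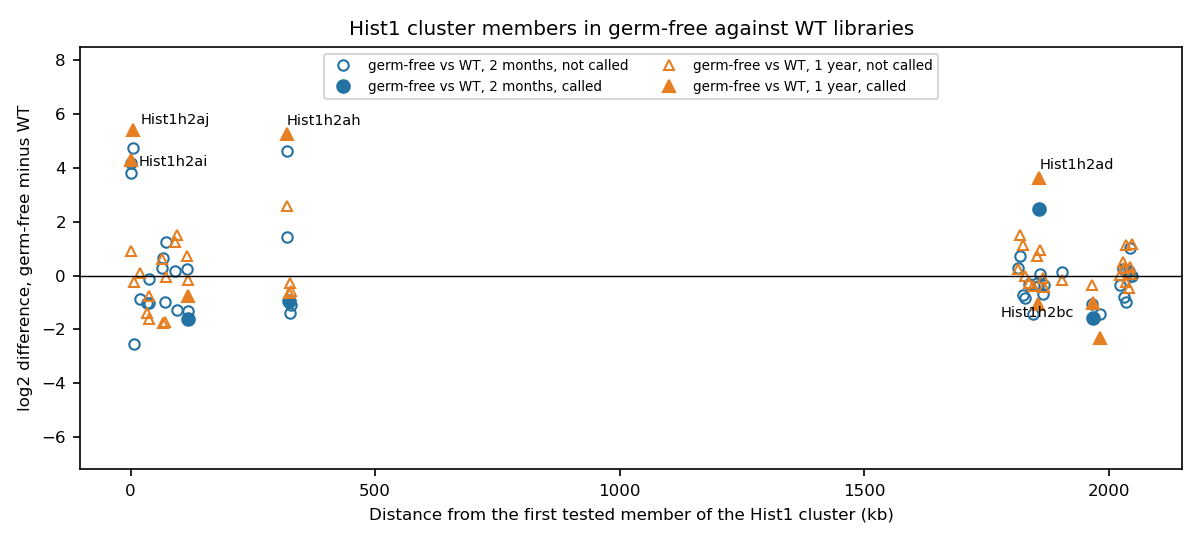
Log2 differences of the tested Hist1 members by distance (kb) from the first tested member, for germ-free against wild type at 2 months (circles) and 1 year (triangles), filled where called. Hist1h2ah, Hist1h2ai and Hist1h2aj are above 4 at both ages. Hist1h2ai and Hist1h2aj lie near the start of the cluster, Hist1h2ah further on and Hist1h2ad in its later part, while Hist1h4m, at 0 in germ-free libraries, is left out.

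The members called higher in germ-free lay in different parts of the Hist1 cluster. Hist1h2ai (chr13:21716422-21716814) and Hist1h2aj (chr13:21721457-21721808) lie near the start of the Hist1 cluster, Hist1h2ah (chr13:22035164-22035568) further on and Hist1h2ad (chr13:23574381-23574952) in its later part. Hist1h2bl, which faces Hist1h2ai and was named after its values were seen, had 45.4, 25.9 and 19.7 in young germ-free libraries against 2.86, 3.93, 0 and 0 in wild type (3.82 ± 1.18 (SE, adjusted p = 0.179)). Of the facing H2B partners of these 4 genes, Hist1h2bl, Hist1h2bm and Hist1h2bk were called at neither age and Hist1h2bf was not tested.

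Many H2A and H2B genes lie head to head and share the stretch between their starts. There were 13 such pairs with starts less than 1000 bases apart, 12 of them H2A with H2B, at 175 to 659 bases, and 12 had both genes tested. In wild type at 1 year both genes were called lower in 2 pairs, Hist1h2ae with Hist1h2bg and Hist1h2ag with Hist1h2bj, 1 gene of the pair in 4, and the sign was the same in all 12. In IL1R1 KO at 2 years both were called in 1 pair, in opposite directions. Hist1h2ac was lower (-1.67 ± 0.52 (SE, adjusted p = 0.0452)) and Hist1h2bc higher, with starts 250 bases apart. A single gene was called in 3 further pairs and the sign was the same in 10 of 12. Between germ-free and wild type at 1 year, 6 pairs had a single called gene and none had both, and the sign was the same in 9. The like signs stand beside age comparisons in which 60 and 51 of all 60 members were below 0.

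Called members occurred with each kind of transcript end. Median levels per kilobase were 95.0 for members that end near the stem-loop, 92.2 for those that run on and 28.2 for those without a stem-loop. In wild type at 1 year 12 of 19 tested members that end near the stem-loop were lower (median -1.49), 10 of 22 that run on (-1.05) and 4 of 19 without one (-1.14). In IL1R1 KO at 2 years the lower members were 2 of 19, 9 of 22 and 2 of 19. The lower members in wild type at 1 year without the high-Mpo libraries were 2 of 18, 1 of 21 and 0 of 17, and 0 in each class in IL1R1 KO at 2 years. The difference between these classes was not tested. Lower members were found on both sides of a split at 50% of windows shared. Members under 50% can still share some windows, and the part of shared reads in the age falls was not tested. Among members with under 50% of windows shared, 17 of 39 were lower in wild type at 1 year (median -1.21), and among those with more, 9 of 21 (median -1.27). These were 1 of 36 and 2 of 20 without the high-Mpo libraries. The 4 members higher in germ-free at 1 year were all among the 21 with more than 50% shared.

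Genes that act with the histones were counted from lists drawn up with earlier results of these data known. Of 26 S-phase genes, 14 were lower and 0 higher in wild type at 1 year (4.61% of all genes were lower), and all 26 were below 0. The called ones with the smallest p were Lig1, a DNA ligase (-0.88 (adjusted p = 6.22e-05)), Pcna, the sliding clamp (-0.48 (adjusted p = 0.000606)), Gins2 of the replicative helicase (-0.68 (adjusted p = 0.00167)) and Mcm10 (-1.14 (adjusted p = 0.00575)). At 2 years of wild type 7 were lower (1.63% of all genes), in IL1R1 KO 7 at 1 year (0.613%) and 11 at 2 years (2.9%), and in germ-free 4 at 1 year (0.814%). When the high-Mpo libraries were left out, 6 and 5 were lower in wild type at 1 and 2 years, 0 and 1 in IL1R1 KO and 1 in germ-free, while 24 to 26 of the 26 were below 0 in these 5 comparisons. In IL1R1 KO at 2 years Tk1, thymidine kinase, was at -0.78 (adjusted p = 0.00203) and Tyms, thymidylate synthase, at -0.74 (adjusted p = 0.00513). Mki67 was lower in wild type at 1 year (-1.01 (adjusted p = 5.38e-05)) and 2 years (-0.70 (adjusted p = 0.00815)) and in IL1R1 KO at 1 year (-0.80 (adjusted p = 0.0132)) and 2 years (-0.84 (adjusted p = 0.00161)). In germ-free it was at -0.20 (adjusted p = 0.719) and did not pass.

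Of 23 genes for histone gene transcription and mRNA processing, 3 were lower in wild type at 1 year, where 4.61% of all genes were: Ccne1, cyclin E (-1.25 (adjusted p = 0.00294)), Slbp (-0.45 (adjusted p = 0.00639)) and Cpsf2 of the cleavage complex (-0.29 (adjusted p = 0.0410)). In IL1R1 KO at 2 years Slbp was lower (-0.46 (adjusted p = 0.0140)) and Hinfp, an activator of H4 genes, higher (0.60 (adjusted p = 0.0398)). None of the list was called in the other age comparisons. In the fit without the high-Mpo libraries, 2 of the list were lower in wild type at 1 year, none was called in IL1R1 KO at 2 years and 1 was higher in germ-free. Npat, the coactivator of histone transcription, was called in none of the 15 comparisons and was at -0.01 (adjusted p = 0.983) in wild type at 1 year. Of 18 histone chaperones 4 were lower in wild type at 1 year (1 without the high-Mpo libraries), led by Nasp, a carrier of H1 and H3-H4 (-0.74 (adjusted p = 6.22e-05)), with Hat1 (-0.47 (adjusted p = 0.00750)), Asf1b (-0.78 (adjusted p = 0.0147)) and Nap1l1 (-0.27 (adjusted p = 0.0353)). Nasp and Chaf1a, a subunit of the chromatin assembly factor, were lower in IL1R1 KO at 2 years (-0.66 (adjusted p = 0.000910) and -0.71 (adjusted p = 0.0146)), where 0 of the list were called without those libraries.

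Replication-independent histone genes, most of which are also expressed outside S phase from polyadenylated mRNAs, moved in part with the members. Of 11, 5 were lower in wild type at 1 year (2 without the high-Mpo libraries). Over all genes 4.61% were lower there, and 2.9% in IL1R1 KO at 2 years. First by p in wild type at 1 year were Cenpa, the centromeric H3 (-0.99 (adjusted p = 0.000320)), H2afy, macroH2A (-0.56 (adjusted p = 0.000907)), H2afx (-0.69 (adjusted p = 0.00125)) and H2afz (-0.40 (adjusted p = 0.00503)). H3f3b, which encodes H3.3, went the other way in IL1R1 KO at 2 years (1.18 (adjusted p = 0.000230)), where 4 of the list were lower (0 without the high-Mpo libraries, where 1 was higher). It was also higher than in wild type of that age (1.10 (adjusted p = 0.000852)). Between germ-free and wild type at 1 year Cenpa was higher (1.00 (adjusted p = 0.00820)), as was H2afy (0.50 (adjusted p = 0.0334)).

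Over the 12 group comparisons 37 of the 60 tested members were called at least once and 23 never. The 7 untested members did not reach the filter in any 3 libraries, and nothing is said of their differences.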

How the data were processed

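The deposited table holds the authors' normalized counts per Ensembl gene for 30 libraries (mouse HSCs, 4000 to 5000 sorted cells each, Smart-seq2, single-end reads of 100 bases per the labels' protocols), a signal that is neither raw counts nor log values. The submitters' processing notes name FastQC 0.11.9, cutadapt 2.10, Salmon 1.2.0.0, DESeq2 1.26.0 and GRCm38. The sources used here do not say how reads shared among copies were assigned and summed to genes, which bears on every member with shared sequence. Low values were rarely whole multiples of 1 read (9.64% to 18.4% of them, tolerance 0.001), so no counts were recovered and depth is an estimate.

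Values were tested as log2(normalized count + 1) with limma 3.58.1 (R 4.3.3; trend, robust, two-sided), with 1 mean per group over all 30 libraries, on the 16958 genes with at least 10 in at least 3 libraries. Adjusted p-values are Benjamini-Hochberg over all genes of a comparison, called below 0.05. There were 15 comparisons, 12 between groups and 3 differences of age changes. The fit was tested on simulated data. GENCODE M21 gave symbols, coordinates and transcripts, and RefSeq promoters were searched with Python 3.11.15. The members and lists were chosen with earlier results of these data known. Named members were the 3 highest by median in each class, every called member or, above 8 calls, the 4 largest rises and 4 largest falls, and up to 4 called genes per list, with Mki67, Slbp, Npat, Mpo and Il1r1 always. Further names are marked as chosen after their values were seen. Genes of facing pairs and members ranked by smallest p or by level per kilobase carry no such mark. Alternatives were a pseudocount of 5, no filter, rescaling to the same sum, only the groups compared, a replicate block, another age for IL1R1 KO 1 year replicate 1, and leaving out each library. Added after seeing the data were fits and sums without the 6 high-Mpo libraries, fits without both wild-type libraries high in Hist1h2ad, and sums without wild-type 1 year replicate 1.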

Additional observations from a re-analysis of the deposited data

Results flagged for a closer look

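In groups of 4 or 5 libraries, the values printed library by library (25 genes or sums, 125 groups in all) were searched for a library far from the rest of its group by Dixon's ratio. There were 14 such values. Chance alone marks about 1 group in 20 only where values are normal and groups independent. The ratio was taken on normalized counts without log, and members with shared sequence may not be independent, so 14 cannot be set against that rate. Wild-type 2 years replicate 1 stood far above the rest in Hist1h2ah (684 normalized counts, the next 23.8), Hist1h2ai (58.2, the next 13.1), Hist1h2aj (317, the next 14.5) and Hist1h3g (21.8, the next 3.53). Wild-type 1 year replicate 1 stood above in Hist1h2ad (962, the next 233) and Hist1h2ah (58.9, the next 6.27). Wild-type 2 months replicate 2, a library with high Mpo, stood above in Hist1h3i (83.1, the next 20.0) and Hist1h2ah (50.7, the next 22.8).

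At 2 years of wild type, replicate 3 stood above in Hist1h3e (458, the next 141) and Hist1h3f (145, the next 26.3), and replicate 2 in Hist1h2ao (609.9, the next 287). Replicate 4 of that group was below in Hist2h2be (128, the next 188). In IL1R1 KO, replicate 4 of 2 years was below in Hist1h2ap (5229, the next 6134), and replicate 3 of 1 year in the sum of all members (17419, the next 22643).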

How the results depend on the processing

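The number of called members moved by more than 1.5 times under these settings. Without the 6 high-Mpo libraries of 2 months it was 3 in wild type at 1 year, 1 in wild type at 2 years, 0 in IL1R1 KO at 1 year, 1 in IL1R1 KO at 2 years, 4 in germ-free at 1 year, 1 for germ-free against wild type at 2 months, and 1 and 1 for the differences in age change between IL1R1 KO and wild type to 1 and 2 years. With only the groups compared it was 2 in wild type at 2 years, 0 in IL1R1 KO at 1 year, 0 in germ-free at 1 year, 1 and 1 for IL1R1 KO against wild type at 1 and 2 years, and 1 for the difference in age change to 1 year. A pseudocount of 5 gave 3 in IL1R1 KO at 1 year and 9 for germ-free against wild type at 2 months. Without the low-value filter the IL1R1 KO count at 1 year was 0. With IL1R1 KO 1 year replicate 1 placed at 2 months, 6 members were called in IL1R1 KO at 2 years. Without both wild-type libraries high in Hist1h2ad, 5 and 1 were called for IL1R1 KO against wild type at 1 and 2 years.

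Replicate numbers as a whole did not pair the libraries. Of 88 pairs with the same number 5 had a correlation of deviations over 0.1, with a median of 0.0054. Replicate 1 of wild type at 1 year went with replicate 1 of wild type at 2 years (0.157) and of germ-free at 1 year (0.151). The latter also went together (0.155). Both wild-type libraries were those high in Hist1h2ad, and what links these libraries was not tested. The others over 0.1 were of replicate 2 (0.165 and 0.101). With the replicate number as a block the counts were 25 and 9 in wild type, 0 and 13 in IL1R1 KO, 3 in germ-free, 0 for IL1R1 KO against wild type at 1 year, and 4 and 3 for germ-free against wild type. Leaving out 1 library at a time gave 13 to 28 and 3 to 12 called members in wild type at 1 and 2 years, 0 to 0 between them, 0 to 2 and 5 to 10 in IL1R1 KO, 0 to 0 between its later ages, and 0 to 3 in germ-free. The ranges were 0 to 0, 0 to 4 and 0 to 1 for IL1R1 KO against wild type by age, 3 to 5 and 2 to 12 for germ-free against wild type, and 0 to 1, 0 to 1 and 0 to 0 for the 3 differences in age change. The cause of these moves was not tested beyond the smaller number of libraries in each fit. The 50 calls of single named members gave 731 alternative values, of which 522 were still called and 209 were not, and the 52 named results that were not called gave 714, of which 20 were called. None of these calls changed sign. Groups of 2 to 5 libraries and shared sequence limit what any single member shows.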
